A study of Mus musculus with 10 samples.

Results

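Semaphorins are guidance proteins that steer or repel growing neurites, and plexins are the cell surface receptors that read them. Neuropilins are coreceptors that bind the secreted class 3 semaphorins and pair with class A plexins to pass the signal on. In the mouse retina these families are known for keeping neurites inside the inner plexiform layer, for sorting arbors into its sublayers, and for guiding ganglion cell axons at the optic chiasm. All 33 genes whose symbols name a class 3 to 7 semaphorin, a plexin, a neuropilin or a plexin domain containing protein were taken from the 23259 symbols of the table. They comprise 20 semaphorins, 9 plexins, 2 neuropilins and 2 plexin domain containing genes. Of the 33, 26 had at least 1 TPM in at least 5 of the 10 libraries and were tested, and Sema3b, Sema3c, Sema3d, Sema3g, Sema5b, Plxnb3 and Plxdc1 did not.

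RNA was sequenced from GFP-positive retinal ganglion cells of C57BL/6 mice at postnatal day 6, in 5 libraries of Satb1-/- Hb9-GFP mice and 5 libraries of wild-type Hb9-GFP mice. Both genotypes carry the GFP reporter, which is named for Hb9 (Mnx1) and is known to mark a direction-selective kind of ganglion cell. Each library came from about 1000 sorted cells, and the 5 of a genotype came from different litters. The labels do not say which part of Satb1 is missing or whether it is missing in every cell. Levels are in TPM, a transcript abundance that is scaled for transcript length and to a fixed library total, so genes can be compared with each other within a library. The sorted cells are bulk samples, in which fewer cells of a type and less RNA per cell cannot be told apart.

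Pan-ganglion cell markers, summed over 12 genes, were at 14525 to 102385 TPM in knockout and 16072 to 31827 TPM in wild-type libraries. The neurofilament gene Nefl carried much of this sum, at 6567 to 94381 TPM in knockout and 6422 to 19151 TPM in wild-type, and Pou4f3 was listed at 0 in knockout 5. Satb1 was at 170.4, 126, 83.1, 34.9 and 24.1 TPM in knockout 1 to 5 and at 304, 189, 414, 132 and 38.6 TPM in wild-type 1 to 5, so its transcripts were present in both genotypes and the levels overlapped. A level per gene does not show whether the deleted part was read. Markers of direction-selective ganglion cells, summed over 6 genes, were at 121 to 331 TPM in knockout and 553 to 1133 TPM in wild-type. All 6 were lower in knockout on fitted values, beside 67.4% of all tested genes, and 0 had an adjusted p under 0.05. Only Cartpt did not overlap between genotypes, at 1.63 to 47.3 TPM in knockout and 56.8 to 843 TPM in wild-type. This held for 0.502% of all tested genes. Cartpt carried much of the sum in wild-type 1, 2, 3 and 5. The part of these 6 markers in the values below was not tested. Summed rod markers (8 genes) were at 1.13 to 455 TPM in knockout and 3.89 to 461 TPM in wild-type. Of the 7 tested rod genes, 6 were higher in knockout on fitted values, and 0 had an adjusted p under 0.05. Summed Muller glia and astrocyte markers (8 genes) were at 67.8 to 2180 TPM in knockout and 49.0 to 202 TPM in wild-type. Vim gave 2118 TPM of the sum in knockout 5. The part of rods and glia in the members' values was not tested. Knockout 4, knockout 5 and wild-type 5 stood apart on the first principal component. Ribosomal protein genes took 12.1% to 13.6% of their TPM, against 3.86% to 8.02% in the other 7 libraries. Of the 12 pan-ganglion cell markers, Pou4f1, Pou4f2, Isl1, Slc17a6 and Stmn2 were lower in these 3 libraries than in each of the other 7, and Thy1 and Gap43 were higher. Of all tested genes, 21.2% were lower in this way and 2.62% higher. The component was computed over all tested genes, these markers among them. Pou4f1, for example, was at 37.4 to 72.7 TPM in the 3 and 194 to 371 TPM in the other 7. The part of these markers in the members' values was not tested.

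Sema6a, the gene of a transmembrane class 6 semaphorin, was the most abundant member in 10 of 10 libraries. Its level was 1011, 418, 222, 152 and 112 TPM in knockout 1 to 5 and 980.1, 482, 460.4, 610.3 and 77.5 TPM in wild-type 1 to 5. By mean level it ranked at position 285 of all symbols. In the mouse retina Sema6A is known to act with plexin A2 and plexin A4 in sublayer targeting and in the wiring of direction-selective circuits. The genotypes overlapped widely, with the highest value in knockout 1 and the lowest in wild-type 5. The mean was 383 ± 370.2 TPM in knockout and 522 ± 324 TPM in wild-type (SD, n = 5 each), a difference of -0.54 on the log2(TPM + 1) scale (SE 0.71, 95% interval -2.01 to 0.94). It was -0.21 without knockout 5 and -1.13 without wild-type 5. Differences on this scale understate the change of genes with low values. Of the 33 members, 22 had a mean of at least 10 TPM over the 10 libraries, and 21 had at least 1 TPM in all 10. By mean level over the 10 libraries Sema6a was followed by Plxna1, Sema3e, Nrp2, Sema4g and Plxna3. Plxna1 exceeded Sema3e in 9 of 10 libraries, while Sema3e exceeded Nrp2 in 4, Nrp2 exceeded Sema4g in 6 and Sema4g exceeded Plxna3 in 8, so the order among these neighbours varied between libraries.

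**Figure D1:**
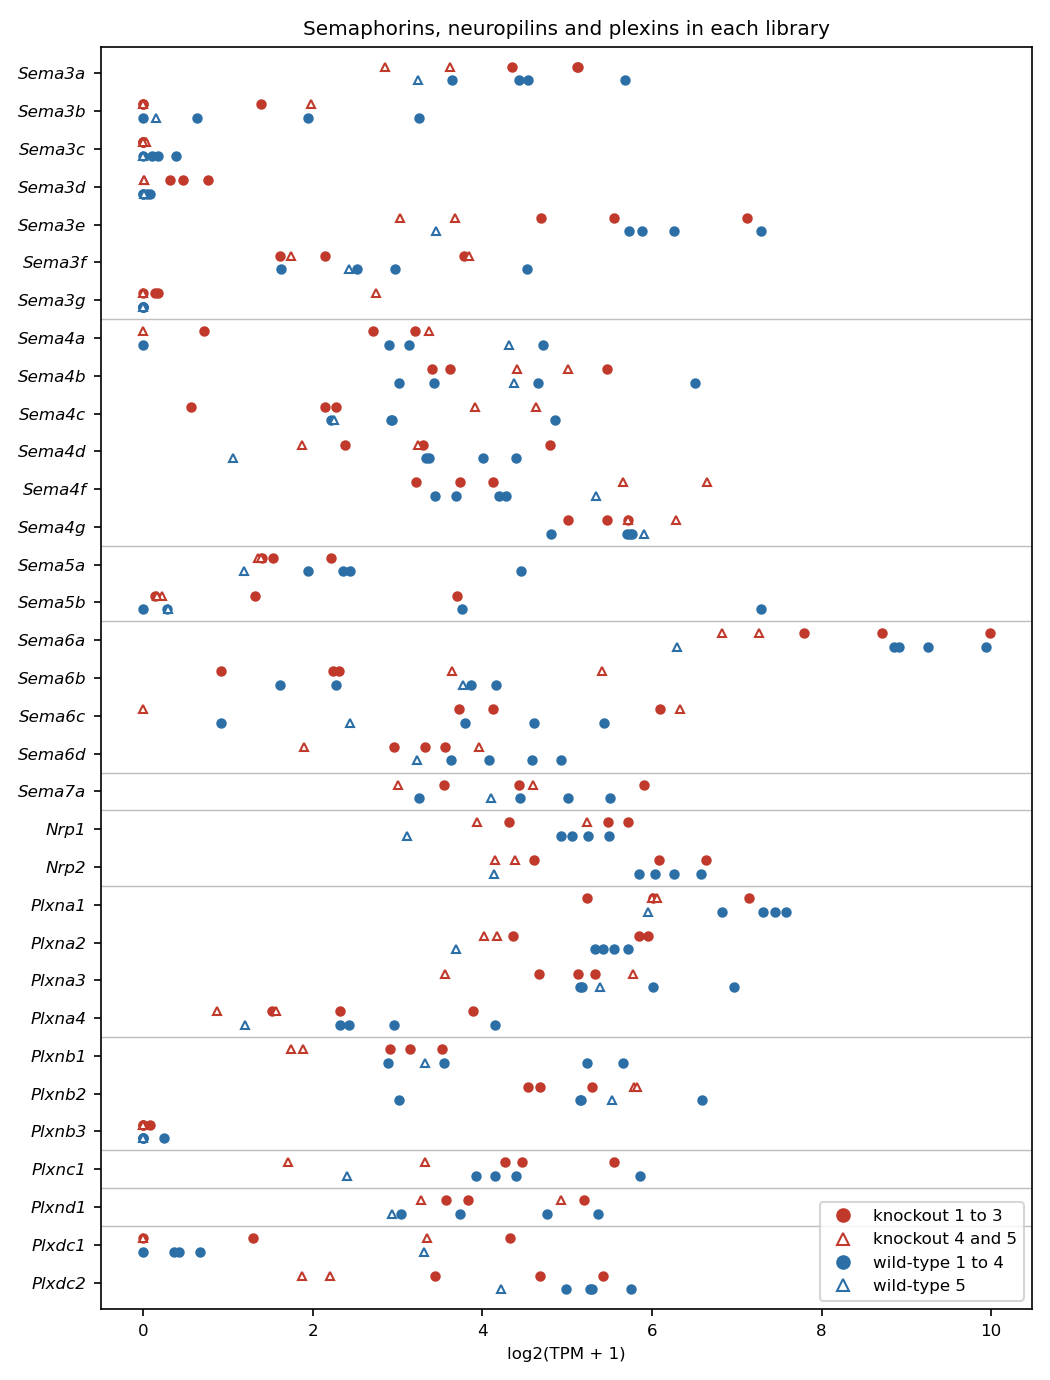
Level of each of the 33 genes in each library, as log2(TPM + 1), with knockout libraries in red above wild-type libraries in blue and open triangles for knockout 4, knockout 5 and wild-type 5. Sema6a is the highest of the 33 genes in each library, while Sema3c, Sema3d and Plxnb3 lie near 0 in both genotypes.

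Sema6d, whose protein acts with plexin A1 and NrCAM on crossing axons at the mouse optic chiasm, was far lower than Sema6a. It was at 8.97, 6.76, 10.7, 14.6 and 2.73 TPM in knockout 1 to 5 and at 29.5, 23.0, 15.9, 11.4 and 8.36 TPM in wild-type 1 to 5. Only knockout 1, 3 and 4 reached the wild-type range. The difference was -0.95 (SE 0.72, limma unadjusted p = 0.199, two-sided exact permutation p = 0.0794). Sema6c was at 0 to 79.7 TPM in knockout and 0.889 to 42.1 TPM in wild-type. Sema6b was at 0.883 to 41.4 TPM in knockout and 2.05 to 16.9 TPM in wild-type.

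Among the secreted class 3 ligands, Sema3e and Sema3a had the highest mean levels. Sema3f exceeded both in knockout 4 and Sema3a in wild-type 3. Sema3e, which ganglion cells are known to release onto plexin D1 of retinal vessels in mice, was at 45.98, 138, 24.8, 11.8 and 7.13 TPM in knockout 1 to 5. In wild-type 1 to 5 it was at 155, 52.0, 75.7, 58.1 and 9.97 TPM. Each genotype held both high and low libraries. The difference was -0.91 (SE 0.83, 95% interval -2.63 to 0.81). Sema3a, the gene of the classical axon-repelling semaphorin, was at 6.2 to 34.0 TPM in knockout and 8.48 to 50.2 TPM in wild-type. Sema3f, a ligand of neuropilin 2, was at 2.05 to 13.3 TPM in knockout and 2.07 to 22.0 TPM in wild-type.

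These 2 abundant class 3 genes sit beside relatives with little signal. On chromosome 5 (mm10, plus strand), Sema3d (12383385 to 12588948), Sema3a (13125414 to 13602565) and Sema3e (14025276 to 14256689) follow each other with gaps of 0.536 and 0.423 megabases. Between Sema3d and Sema3a the annotation places 0 protein-coding genes, and between Sema3a and Sema3e it places 1. Sema3c lies a further 3.32 megabases on. Sema3d was at 0.0025 to 0.699 TPM in knockout and 0 to 0.0535 TPM in wild-type, and Sema3c at 0 to 0.0251 TPM in knockout and 0 to 0.302 TPM in wild-type. Sema3a and Sema3e exceeded 6 TPM in each of the 10 libraries, so the levels of neighbours in this stretch differed within every library. Sema3b and Sema3f lie 72271 bases apart on chromosome 9. Sema3f was at 2.05 to 22.0 TPM over the 10 libraries, while Sema3b was listed at 0 in 4 of them. In wild-type 2 Sema3b exceeded Sema3f, at 8.5 against 4.75 TPM. Sema3b was at 0 to 2.94 TPM in knockout and 0 to 8.5 TPM in wild-type. Sema3g was at 0 to 5.73 TPM in knockout and was listed at 0 in all 5 wild-type libraries.

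Class 4 semaphorins, transmembrane ligands that bind class B and other plexins, had their highest mean level in Sema4g. Sema4b exceeded Sema4g in knockout 1 and wild-type 1, Sema4f in knockout 5 and Sema4c in wild-type 4. Sema4g was at 43.2, 51.7, 31.2, 76.9 and 51.4 TPM in knockout 1 to 5 and at 52.7, 51.0, 53.4, 27.0 and 59.1 TPM in wild-type 1 to 5. The genotypes overlapped almost fully, with a mean of 50.9 ± 16.8 TPM in knockout and 48.6 ± 12.5 TPM in wild-type (SD, n = 5 each). Sema4f was at 8.27, 12.3, 16.4, 49.6 and 99.2 TPM in knockout 1 to 5 and at 9.86, 17.4, 18.3, 11.9 and 39.5 TPM in wild-type 1 to 5. Its 3 highest values are those of knockout 4, knockout 5 and wild-type 5. The difference was 0.49 with all libraries (SE 0.76) and -0.21 without those 3 (SE 0.71). Sema4b ran from 9.57 to 43.4 TPM in knockout and from 7.12 to 90.0 TPM in wild-type. Sema4c was at 0.474 to 23.8 TPM in knockout and 3.63 to 27.9 TPM in wild-type. Sema4a was at 0 to 9.32 TPM in knockout and 0 to 25.3 TPM in wild-type (difference -1.01, SE 0.94).

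Class 5 semaphorins, which act through plexin A1 and plexin A3 to confine neurites to the inner retina in mice, were low in most libraries. Sema5a was at 3.64, 1.64, 1.89, 1.56 and 1.62 TPM in knockout 1 to 5 and at 21.0, 4.4, 2.83, 4.12 and 1.28 TPM in wild-type 1 to 5. The difference was -0.90 (SE 0.71, limma unadjusted p = 0.221, two-sided exact permutation p = 0.127). Sema5b was at 12.002, 1.49, 0.103, 0.166 and 0.119 TPM in knockout 1 to 5 and at 0, 12.5, 0.214, 155 and 0.219 TPM in wild-type 1 to 5. Its level was thus high in wild-type 4 and under 13 TPM in all other libraries, and it missed the filter for testing. Wild-type 4 stood apart on the second principal component, with a score of -145 against 6.88 to 43.5 in the other libraries. Summed amacrine markers were at 21.3 TPM in wild-type 4, against 0.421 to 16.2 TPM in the other libraries. Slc6a9 gave 19.2 TPM of that sum, and the other 7 genes of the list summed to 2.11 TPM in wild-type 4, against 0.421 to 14.6 TPM in the other libraries. Wild-type 4 also had summed microglia markers at 785 TPM and summed rod markers at 320 TPM. These sums reached 839 TPM in knockout 5 and 461 TPM in wild-type 5. The part of these markers in the Sema5b value was not tested. Sema7a, the membrane-anchored ligand that acts through integrins, was at 7.01 to 59.0 TPM in knockout and 8.52 to 44.4 TPM in wild-type.

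Both neuropilin genes were expressed. Nrp2, whose protein binds Sema3F, was at 98.3, 67.0, 23.4, 19.9 and 16.7 TPM in knockout 1 to 5 and at 75.5, 64.6, 94.5, 56.8 and 16.7 TPM in wild-type 1 to 5. Nrp1, whose protein binds Sema3A and VEGF and promotes crossing of ganglion cell axons in mice, was at 18.9, 51.5, 43.8, 14.3 and 36.5 TPM in knockout 1 to 5. In wild-type 1 to 5 Nrp1 was at 32.3, 29.4, 36.9, 43.9 and 7.64 TPM. Nrp2 was above Nrp1 in 3 of 5 knockout and 5 of 5 wild-type libraries, and took 31.4% to 83.9% of the summed neuropilin TPM in knockout and 56.4% to 71.9% in wild-type. This difference in range was not tested. The genotype difference was -0.60 (SE 0.69) for Nrp2 and 0.17 (SE 0.68) for Nrp1.

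Class A plexins, the signalling partners of neuropilins and the direct receptors of class 5 and 6 semaphorins, made up 57.3% to 68.2% of the summed plexin TPM in knockout and 61.7% to 78.8% in wild-type. Plxna1 (chromosome 6, 89316314 to 89362620, minus strand) was the highest plexin in all 10 libraries. It was at 140.1, 63.7, 36.7, 62.8 and 65.8 TPM in knockout 1 to 5 and at 189.7, 174, 113, 157 and 60.8 TPM in wild-type 1 to 5. In 4 knockout libraries Plxna1 was at most 65.8 TPM, and in 4 wild-type libraries it was at least 113 TPM, but the ranges overlapped. Knockout 1, 2, 4 and 5 lay within the wild-type range, and wild-type 3 and 5 lay within the knockout range. The mean was 73.8 ± 38.9 TPM in knockout and 139 ± 52.2 TPM in wild-type (SD, n = 5 each). The difference of -0.93 (SE 0.57, 95% interval -2.13 to 0.27) did not pass (limma unadjusted p = 0.12, Benjamini-Hochberg adjusted p = 0.992, two-sided exact permutation p = 0.0714). Without knockout 4, knockout 5 and wild-type 5 it was -1.16 (SE 0.55).

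Plxna3 (chromosome X, 74329066 to 74344689, plus strand) was at 33.8, 39.0, 24.5, 54.0 and 10.8 TPM in knockout 1 to 5 and at 124, 35.1, 34.6, 63.7 and 40.7 TPM in wild-type 1 to 5. The difference was -0.85 (SE 0.64, limma unadjusted p = 0.203, two-sided exact permutation p = 0.127). Knockout 2 and 4 lay within the wild-type range. Plxna2 was at 56.3, 61.2, 19.6, 17.1 and 15.2 TPM in knockout 1 to 5 and at 41.8, 39.3, 51.6, 45.8 and 11.9 TPM in wild-type 1 to 5. Its 2 highest libraries were knockout and its lowest was wild-type. Plxna4 was the lowest of the class, at 0.832 to 13.9 TPM in knockout and 1.29 to 16.7 TPM in wild-type. The differences were -0.27 (SE 0.67) for Plxna2 and -0.58 (SE 0.78) for Plxna4. For Plxna2 the sign turned with scaling, at 0.10 after median centring of the libraries and 0.078 after quantile normalization.

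Of the class B plexins, receptors of class 4 semaphorins, Plxnb2 was at 22.1, 38.3, 24.7, 54.2 and 55.4 TPM in knockout 1 to 5. In wild-type 1 to 5 it was at 34.8, 34.6, 7.07, 95.03 and 45.2 TPM. The lowest and the highest value were both wild-type. Plxnb1 (chromosome 9, 109095389 to 109119917, plus strand), the gene of the Sema4D receptor, was at 10.5, 7.88, 6.49, 2.34 and 2.7 TPM in knockout 1 to 5. In wild-type 1 to 5 it was at 10.7, 6.37, 36.7, 49.5 and 9.04 TPM. Its difference was -1.49 (SE 0.78, limma unadjusted p = 0.0711, two-sided exact permutation p = 0.0635). High values in wild-type 3 and 4 went with it, while the other 3 wild-type libraries lay in or just above the knockout range. Sema4d itself was at 2.67 to 26.8 TPM in knockout and 1.08 to 20.01 TPM in wild-type. Plxnb3 was listed at 0 in 8 of 10 libraries and reached at most 0.188 TPM.

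Plxnc1, the gene of the Sema7A receptor, was at 2.26 to 45.8 TPM in knockout and 4.29 to 57.1 TPM in wild-type. Plxnd1, the gene of the Sema3E receptor, was at 35.6, 10.9, 13.2, 29.4 and 8.69 TPM in knockout 1 to 5 and at 40.3, 26.2, 12.3, 7.23 and 6.62 TPM in wild-type 1 to 5. Plexin D1 is best known from endothelial cells. Summed endothelial and pericyte markers (10 genes) were at 1.2 to 7.71 TPM in knockout and 5.84 to 61.5 TPM in wild-type. The sums were highest in wild-type 1 and 2, at 61.5 and 52.8 TPM, which also held the highest wild-type Plxnd1 levels. Other libraries went the other way. Knockout 1 and 4 had Plxnd1 at 35.6 and 29.4 TPM beside sums of 1.33 and 1.2 TPM. Wild-type 4 had a sum of 31.2 TPM beside Plxnd1 at 7.23 TPM. In wild-type 1 and 2 the pericyte gene Rgs5 gave 38.6 and 42.9 TPM and the endothelial gene Pecam1 10.8 and 1.05 TPM. The endothelial gene Cdh5 reached at most 0.0804 TPM in any library, and Cldn5 was listed above 0 in wild-type 1 alone, at 4.22 TPM. The part of such cells in the Plxnd1 values was not tested.

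The smallest limma p of any member belonged to Plxdc2 (chromosome 2, 16356304 to 16755839, plus strand), which encodes a transmembrane protein with a plexin-like domain. It is not a semaphorin receptor in the textbook sense. Plxdc2 was at 41.99, 24.6, 9.84, 3.6 and 2.66 TPM in knockout 1 to 5 and at 52.9, 38.1, 37.4, 30.8 and 17.6 TPM in wild-type 1 to 5. In 3 knockout libraries it was below all wild-type libraries. The mean was 16.5 ± 16.7 TPM in knockout and 35.4 ± 12.8 TPM in wild-type (SD, n = 5 each), a difference of -1.58 (SE 0.77, 95% interval -3.19 to 0.03). It did not pass (limma unadjusted p = 0.0539, Benjamini-Hochberg adjusted p = 0.992, two-sided exact permutation p = 0.0794). Without knockout 4, knockout 5 and wild-type 5 the difference was -0.81 (SE 0.65), nearer to 0. The related Plxdc1 was at 0 to 19.1 TPM in knockout and 0 to 8.91 TPM in wild-type.

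**Figure D2:**
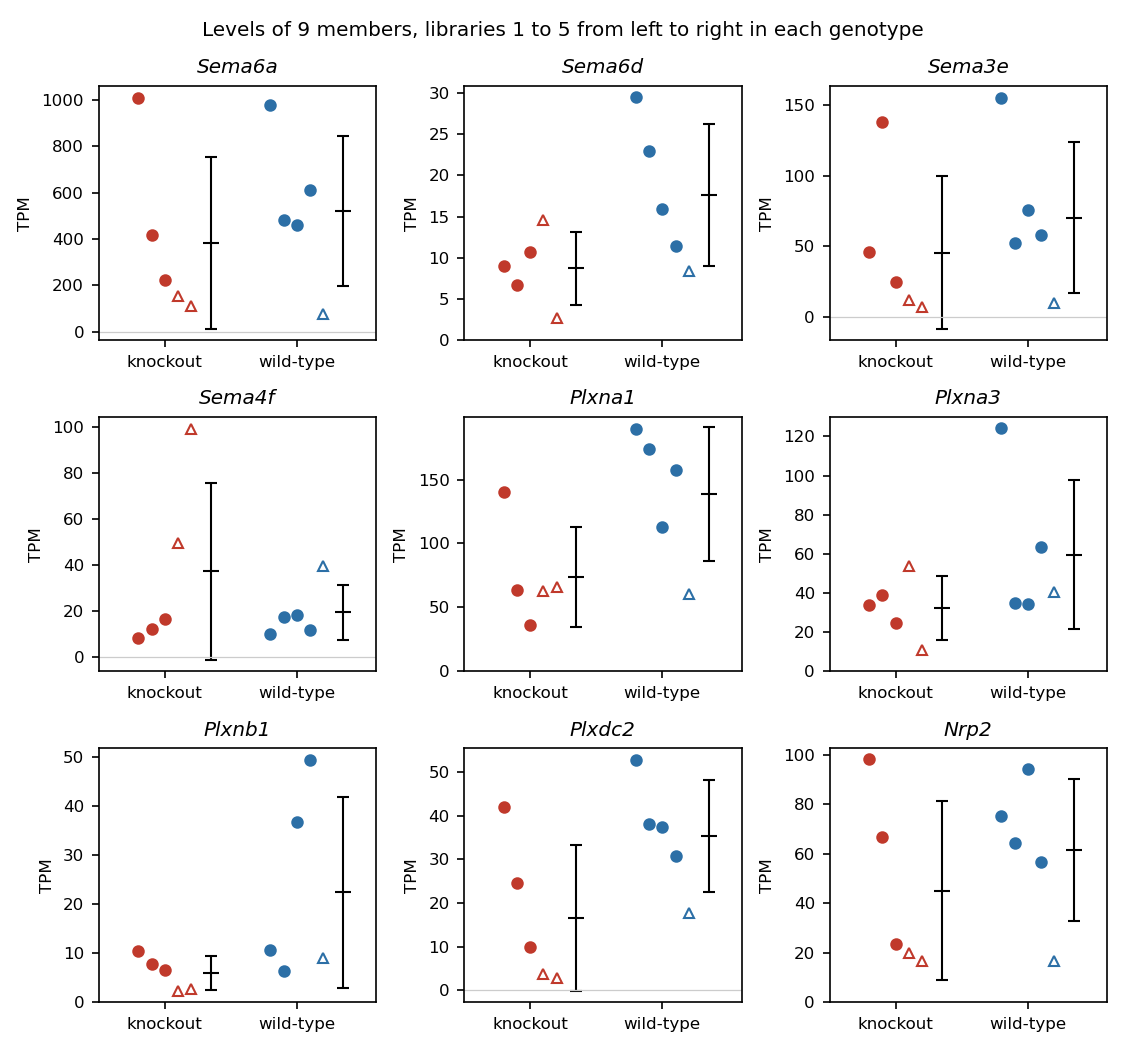
TPM of 9 members in libraries 1 to 5 of each genotype, with the mean and SD (n = 5) beside the points and open triangles for knockout 4, knockout 5 and wild-type 5. The genotypes overlap in each panel, and the triangles are the lowest points for Sema6a, Sema3e and Nrp2 and the highest for Sema4f.

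Across the 26 members that passed the filter of at least 1 TPM in at least 5 libraries, limma called 0 at a Benjamini-Hochberg adjusted p under 0.05. Over all 11745 tested genes it called 0%, and 3.31% had an unadjusted p under 0.05, against 0 of the 26 members. That background of 389 genes became 845 without wild-type 5, 829 with the replicate number as a block and 834 with library weights. The unadjusted two-sided exact permutation p of the 26 ran from 0.0635 for Plxnb1 to 0.976 for Sema4b. Levels did not overlap between genotypes for 0 of the 26, where this held for 0.502% of all tested genes (0.426% below and 0.0766% above). On fitted differences 20 of the 26 were lower and 6 higher in knockout, beside 67.4% lower among all tested genes. After median centring 11 of the 26 were lower, beside 46.1% of all tested genes, and after quantile normalization again 11, beside 52.3%. Without knockout 4, knockout 5 and wild-type 5, 22 of the 26 were lower, beside 61.8%, and 0 had an unadjusted p under 0.05, beside 4.37%. The median difference was -0.28 for the members and -0.31 for all tested genes, and 0.10 and 0.07 after median centring. All 4 class A plexins had lower fitted values in knockout, which became 3 of 4 after median centring, and none of the 4 passed. The median SE of a member was 0.75. Plxdc2 at -1.58 (SE 0.77) and Plxnb1 at -1.49 (SE 0.78) did not pass, so differences well above the SE could also go undetected.

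**Figure D3:**
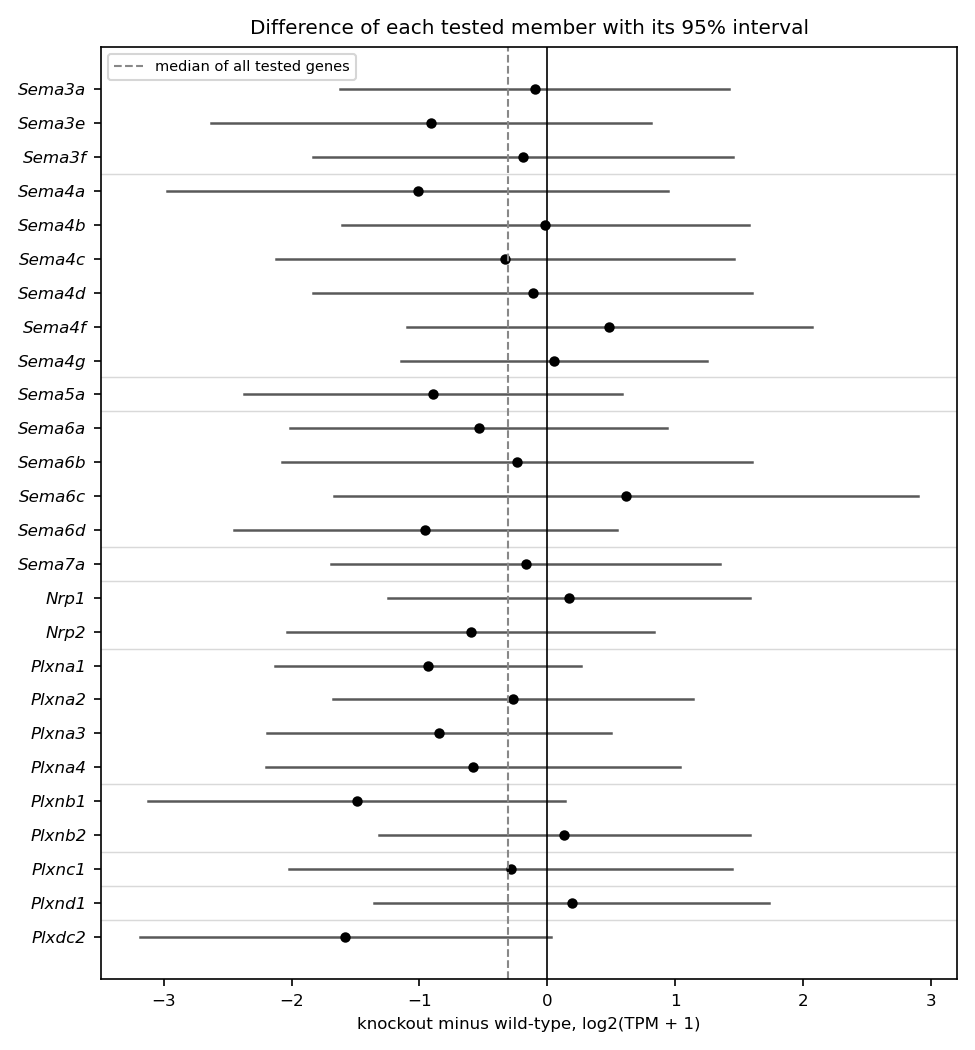
Fitted difference of the 26 tested members, knockout minus wild-type on the log2(TPM + 1) scale, with 95% intervals and a dashed line at the median of all tested genes. All 26 intervals include 0, with Plxdc2 and Plxnb1 farthest to the left.

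Some members set apart the 3 libraries that stood apart on the first component, at a share near that of all tested genes. That component was computed over all tested genes, the members among them. In knockout 4, knockout 5 and wild-type 5, 7 of the 26 tested members (26.9%) were below their level in each of the other 7 libraries, beside 21.2% of all tested genes. These were Sema3a, Sema3e, Sema5a, Sema6a, Nrp2, Plxna2 and Plxnc1. Sema6a was at 77.5 to 152 TPM in the 3 libraries and 222 to 1011 TPM in the other 7, and Sema3e was at 7.13 to 11.8 TPM in the 3 and 24.8 to 155 TPM in the other 7. Sema4f was above its level in each of the other 7, at 39.5 to 99.2 TPM against 8.27 to 18.3 TPM, where 2.62% of all tested genes were.

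The make-up of semaphorin transcripts followed the same libraries. Sema6a took 27.1% to 31.7% of the summed semaphorin TPM in knockout 4, knockout 5 and wild-type 5, and 56.8% to 73.3% in the other 7 libraries. Class 4 genes took 33.9% to 57.4% in the 3 libraries and 9.45% to 17.0% in the other 7, while their summed level overlapped, at 142 to 203 TPM in the 3 and 65.4 to 182 TPM in the other 7. Among those 7, the Sema6a share was 56.8% to 73.3% in knockout 1 to 3 and 58.5% to 67.9% in wild-type 1 to 4. In the Sema6a share the genotypes thus overlapped among those 7 libraries, and the other 3 lay below.

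**Figure D4:**
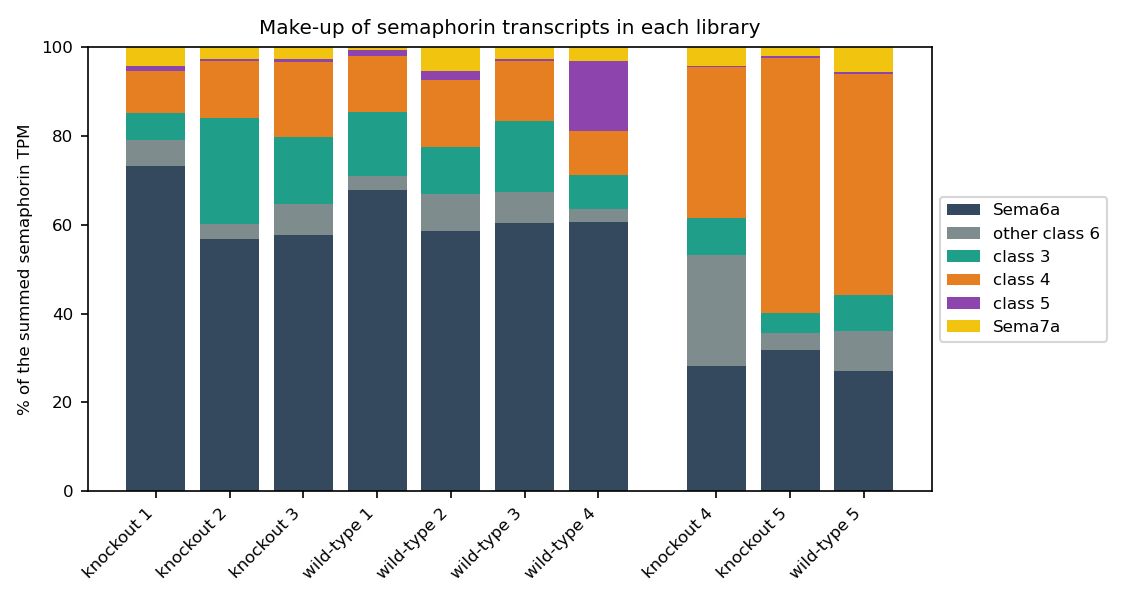
Share of each semaphorin group in the summed semaphorin TPM of each library, in percent, with knockout 4, knockout 5 and wild-type 5 set off on the right. Sema6a is the largest part of the 7 bars on the left, while class 4 genes take 33.9% to 57.4% of the 3 bars on the right.

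Over all tested genes transcript length moved with this pattern, but not every long member followed it. The longest annotated transcript of the class 4 genes has 3205 to 4552 bases, that of Sema6a 6856 and that of Sema3e 6861. Plxna1, with 9034 bases, was at 60.8 to 65.8 TPM in the 3 libraries and 36.7 to 190 TPM in the other 7. Plxna3 with 6943 bases and Plxnb1 with 8649 bases also overlapped between the 3 and the other 7. Of all tested genes with an annotated length, the share below all other libraries in the 3 libraries was 6.69% in the shortest of 4 length classes of about equal size and 40.3% in the longest. Of the 26 tested members 16 are in the longest class and 0 in the shortest, and the share below was 26.9% for the 26. The part of length in the members' values was not tested.

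Genes that work with semaphorins outside the families were measured as a list of 38 coreceptors and effectors, of which 29 were tested. Limma called 0 of the 29 in either direction at an adjusted p under 0.05, and 0 had an unadjusted p under 0.05, beside 3.31% of all tested genes. On fitted values 20 were lower and 9 higher, beside 67.4% lower among all tested genes. The median was -0.22, beside -0.31 for all tested genes. After median centring 10 were lower, beside 46.1%, and after quantile normalization 19, beside 52.3%. L1cam, a coreceptor in Sema3A signalling, was the most abundant coreceptor, at 1201, 660.1, 796, 808 and 787 TPM in knockout 1 to 5 and 1857, 945, 1536, 1572 and 685 TPM in wild-type 1 to 5. Its difference was -0.57 (SE 0.49, limma unadjusted p = 0.255, two-sided exact permutation p = 0.0794). The collapsin response mediator genes, which relay Sema3A signals to the cytoskeleton, were abundant in both genotypes. Dpysl3 had 1353 ± 148 TPM in knockout and 1546 ± 486 TPM in wild-type, and Dpysl5 had 1152 ± 275 TPM in knockout and 1342 ± 543 TPM in wild-type (SD, n = 5 each). Dpysl2 was at 322 to 1410 TPM in knockout and 249 to 1542 TPM in wild-type. Crmp1 was at 375 to 815 TPM in knockout and 430 to 717 TPM in wild-type. Cfl1, the gene of the actin-severing protein cofilin, was at 1028 to 2388 TPM in knockout and 878 to 2118 TPM in wild-type.

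Among the effectors with the smallest p, Arhgef11, a RhoA exchange factor bound by class B plexins, was at 19.3, 26.4, 36.2, 18.1 and 11.2 TPM in knockout 1 to 5. In wild-type 1 to 5 it was at 83.6, 42.1, 25.5, 60.6 and 35.2 TPM. Knockout 2 and 3 overlapped with wild-type 3 and 5. The difference was -1.10 (SE 0.63, limma unadjusted p = 0.095, Benjamini-Hochberg adjusted p = 0.992, two-sided exact permutation p = 0.0397 with no adjustment). The related Arhgef12 was at 10.6 to 107 TPM in knockout and 26.1 to 103 TPM in wild-type. Rac1, a GTPase that plexins engage, was at 86.1 to 433 TPM in knockout and 118 to 1066 TPM in wild-type (difference -1.01, SE 0.65). The plexin-bound oxidoreductase gene Mical3 had 41.8 ± 9.77 TPM in knockout and 83.3 ± 42.1 TPM in wild-type (SD, n = 5 each, difference -0.76, SE 0.63). Its relative Mical2 was at 0 to 4.27 TPM in knockout and 0.286 to 21.8 TPM in wild-type.

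Several coreceptors known from other cells were near 0, and the genes of this paragraph were chosen after their values were seen. Met and Erbb2, partners of class B plexins, reached at most 2.16 and 0.0733 TPM, and Kdr, the VEGF receptor that joins neuropilin 1, at most 1.49 TPM. Trem2 and Tyrobp are genes of myeloid cells whose proteins join plexin A1 in mouse osteoclasts and dendritic cells. Trem2 was at 0 to 248 TPM in knockout and 0 to 94.6 TPM in wild-type, and Tyrobp at 21.9 to 1065 TPM in knockout and 0 to 428 TPM in wild-type. Summed microglia markers were at 42.1 to 839 TPM in knockout and 2.01 to 785 TPM in wild-type. The part of microglia in the Plxna1 values was not tested.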

How the data were processed

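The authors deposited one table of log10(TPM + 1) values per gene and library, with no counts, so sequencing depth is unknown and no interval based on counts was computed. Base and offset were read from the values, since each library sums to 1000000 TPM after back-transformation. Per the submitters' processing notes, TopHat2 2.0.10, Cufflinks and the mm10 build were used. No annotation, counting step or strand setting is stated in the sources used here, and reads shared with overlapping genes may be split. A value of 0 can be a failed estimate. Each library was made from amplified cDNA, per the labels' protocols.

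From these values, 25 entries whose symbols had become date numbers were left out, and 240 symbols on several lines were summed. The 11745 genes that reached 1 TPM in 5 or more libraries were tested on log2(TPM + 1) with limma 3.58.1 in R 4.3.3, with genotype alone in the model, a trend of variance on mean, and p-values adjusted by Benjamini-Hochberg at a threshold of 0.05. Single members also had a two-sided exact permutation test, whose smallest possible p is 0.00794. The p-values measure the spread between libraries of different litters. Positions and lengths come from GENCODE M21 (GRCm38, equal to mm10).

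Members described by single libraries or tests are the 12 with the highest mean, the 12 with the smallest p and 12 with known retinal roles. Those listed at 0 in at least 8 libraries are also named. All others are given by range, except for flagged libraries, differences that changed sign, and libraries in which their order within a class changed. Pathway genes named are the 6 with the smallest p and the 6 with the highest mean, besides 5 coreceptors chosen after their values were seen. Members and lists were chosen with earlier results of these data known. Alternatives covered pseudocount, filter, scaling, library weights, a replicate block and libraries left out.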

Additional observations from a re-analysis of the deposited data

Results flagged for a closer look

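Of 52 groups of 5 libraries (26 tested members in each genotype), 5 held a library far from its own group on the log2(TPM + 1) scale by Dixon's ratio, where chance flags about 1 in 20 groups. Sema5a was at 3.64 TPM in knockout 1, with the nearest knockout library at 1.89 TPM. In wild-type 5, Nrp1 was at 7.64 TPM with the nearest wild-type library at 29.4 TPM, and Plxna2 was at 11.9 TPM with the nearest at 39.3 TPM. In wild-type 4, Sema4c was at 27.9 TPM with the nearest wild-type library at 6.61 TPM, and Sema4g was at 27.0 TPM with the nearest at 51.0 TPM.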

How the results depend on the processing

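In each of 18 alternative fits 0 members passed at an adjusted p under 0.05. Over all genes, 1 passed with a minimum of 5 TPM and 3 with library weights, and 0 to 1 with single libraries left out (1 without wild-type 3, 4 or 5). The median difference of the members lay between -0.65 and 0.10 over all alternatives. Without the 3 libraries apart, differences turned to -0.0069 for Nrp1, -0.14 for Plxnb2, -0.031 for Plxnd1, -0.21 for Sema4f and -0.11 for Sema4g, and to 0.29 for Sema3a, 0.07 for Sema7a and 0.18 for Plxnc1. With library weights Plxnd1 was at -0.25 and Sema4g at -0.079. Median centring and quantile normalization gave 0.10 and 0.078 for Plxna2 and 0.36 and 0.27 for Sema4b, and other members changed sign too. Either scaling left 11 of the 26 tested members lower in knockout, against 20 without it. With single libraries left out, the range was -0.24 to 0.42 for Nrp1, -0.39 to 0.51 for Plxnb2, -0.068 to 0.54 for Plxnd1, -0.36 to 0.51 for Sema4b, -0.0064 to 0.85 for Sema4f and -0.14 to 0.21 for Sema4g. The sign held but the size moved for Sema6a (-1.13 to -0.21), Sema3e (-1.49 to -0.46), Sema5a (-1.22 to -0.40), Plxna4 (-1.04 to -0.19) and Nrp2 (-1.01 to -0.34), among others. The genes of all tested with an unadjusted p under 0.05 then numbered 286 to 845. The cause was not tested. Plxdc2 reached a limma unadjusted p under 0.05 in 7 of the 18 alternatives (lowest 0.0154, without knockout 1). Plxna1 did in 2 (lowest 0.0201, with library weights) and Plxnb1 in 1 (0.046, without wild-type 2). Of all 11745 tested genes, 537, 834 and 348 in turn had such a p in those fits. With the replicate number as a block, 0 members passed and Plxdc2 had a difference of -1.58 (limma unadjusted p = 0.0172). Same-numbered libraries correlated in their deviations at -0.03 to 0.36, and not every pair was above 0.1, so the numbers were not taken to pair them. As a hint from the data, not the design, 5 of 10 libraries correlated best with their own number, and the block raised the genes with an unadjusted p under 0.05 to 829, against 389 without it. The unknown depth limits what can be said of members under 1 TPM.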
